A study of Mus musculus with 4 samples.

Results

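Solute carrier genes (Slc) annotated to narrow Bmal1 peaks in neonatal mouse retina are described here. Members were all gene names that begin with Slc and a digit in the 6 narrow peak lists of the single libraries and of the pooled libraries of each age, with 2 names left out (Slc24a2 and Slc2a12). This gave 110 genes among 7005 genes named in the lists, and 222 peaks among 16134. All 110 matched a protein-coding RefSeq gene by Entrez identifier, out of 373 solute carrier genes in RefSeq under the same rule. The rule is by name alone, so it also took in Slc7a6os, the gene on the strand opposite to Slc7a6, which is not a carrier. The 373 likewise hold Slc9a3r1, Slc9a3r2 and Slc4a1ap, which are named after carriers but are not carriers. Families 9 and 4 are counted with them below. The data are Bmal1 ChIP-seq libraries, in which DNA bound by Bmal1 is pulled down and sequenced, from retina taken on postnatal days 3 (P3) and 5 (P5) at zeitgeber time 4. P3 has 2 libraries (replicates 4 and 5), P5 has 2 (replicates 2 and 3), and 1 input library was their common background. The strain of the wild-type mice is given as C57BL/6J in the methods and as BL6129/6N, among mixed strains, in the reporting summary, no treatment is named, and how many retinas or animals made up a library is not stated. Whether the libraries of an age came from separate animals is therefore not known, and the spread between them may be technical. The antibody is named with different catalogue numbers in the sources. Retina was not dissected into cell types and no RNA was measured in these libraries, so the tissue could not be checked against marker genes.

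Solute carriers are membrane proteins that move ions, sugars, amino acids, neurotransmitters, nucleotides and metals across the plasma membrane and the membranes of organelles. They are grouped into families by sequence, and the family number follows Slc in the name. In the retina they clear glutamate from synapses, load synaptic vesicles, feed photoreceptors with sugars and lactate, and set chloride and pH in neurons and glia. Bmal1 pairs with CLOCK and binds E-boxes, short DNA motifs with CACGTG as their best known form, near the start sites of clock-controlled genes.

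The peak sequences below belong to solute carrier places found both in a pooled list and in a library of the same age. Each is read on the plus strand of GRCm38 (mm10), from the first to the last base of the pooled peak, both included. Of the 10 such places, 7 are shown. Capitals mark a match to the flexible E-box, CANNTG with C or T in the third place and G or T in the fourth, on either strand. Its forms are the palindrome CACGTG itself, then CATGTG with its reverse complement CACATG, then CACTTG with its reverse complement CAAGTG, and last CATTTG with its reverse complement CAAATG. Sequences with no capitals hold none of them. For P3 they come from Slc26a7 (chr4:14599285-14599449), Slc25a23 (chr17:57058956-57059120), Slc1a3 (chr15:8806003-8806167), Slc25a21 (chr12:57178819-57178983) and Slc9a7 (chrX:20267721-20267885). For P5 they come from Slc37a2 (chr9:37239383-37239521) and Slc25a36 (chr9:97161354-97161492).
Slc26a7: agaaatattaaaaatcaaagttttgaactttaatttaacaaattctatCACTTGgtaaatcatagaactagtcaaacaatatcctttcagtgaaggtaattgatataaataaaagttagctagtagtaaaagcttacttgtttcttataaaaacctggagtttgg
Slc25a23: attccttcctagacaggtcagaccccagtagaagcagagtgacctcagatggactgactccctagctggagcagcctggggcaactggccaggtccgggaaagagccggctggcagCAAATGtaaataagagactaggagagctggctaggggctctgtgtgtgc
Slc1a3: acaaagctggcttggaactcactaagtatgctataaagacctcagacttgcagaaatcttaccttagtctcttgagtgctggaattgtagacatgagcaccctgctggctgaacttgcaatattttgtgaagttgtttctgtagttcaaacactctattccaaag
Slc25a21: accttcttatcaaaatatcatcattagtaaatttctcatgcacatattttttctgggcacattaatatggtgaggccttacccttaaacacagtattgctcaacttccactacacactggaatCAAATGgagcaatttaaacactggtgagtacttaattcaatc
Slc9a7: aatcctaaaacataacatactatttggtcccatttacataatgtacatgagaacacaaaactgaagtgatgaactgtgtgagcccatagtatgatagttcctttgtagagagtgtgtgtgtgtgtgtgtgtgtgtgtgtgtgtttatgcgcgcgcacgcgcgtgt
Slc37a2: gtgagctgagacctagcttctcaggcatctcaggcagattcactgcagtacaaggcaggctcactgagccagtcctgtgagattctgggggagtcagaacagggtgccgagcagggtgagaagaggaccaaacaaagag
Slc25a36: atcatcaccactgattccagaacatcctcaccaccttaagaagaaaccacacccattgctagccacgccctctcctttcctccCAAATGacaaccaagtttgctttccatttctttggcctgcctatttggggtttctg

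No pooled solute carrier peak held the exact CACGTG. The next 3 sequences, chosen after their values were seen, are the solute carrier peaks that did. All came from P3 replicate 4 alone, in intron 12 of 12 of the zinc transporter Slc39a12 (chr2:14483187-14483331), 2.86 kb upstream of the choline transporter-like gene Slc44a5 (chr3:153970505-153970649) and in intron 5 of 17 of Slc26a5, which encodes prestin (chr5:21834358-21834502).
Slc39a12: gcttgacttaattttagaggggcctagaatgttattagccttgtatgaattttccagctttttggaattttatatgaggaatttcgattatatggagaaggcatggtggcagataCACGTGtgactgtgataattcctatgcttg
Slc44a5: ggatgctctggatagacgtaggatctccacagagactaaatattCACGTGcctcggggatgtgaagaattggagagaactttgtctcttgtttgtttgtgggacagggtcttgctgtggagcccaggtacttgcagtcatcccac
Slc26a5: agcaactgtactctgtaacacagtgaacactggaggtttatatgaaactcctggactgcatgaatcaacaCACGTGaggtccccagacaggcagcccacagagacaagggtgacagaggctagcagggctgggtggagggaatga

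The lists differ widely in length. P3 replicate 4 had 9543 narrow peaks, P3 replicate 5 had 944, P5 replicate 2 had 200 and P5 replicate 3 had 1336, from 55.2 to 68.3 M tags per library. The lowest peak of P3 replicate 4 held 12 tags and that of each other library 17, so the lists were not called to the same depth of evidence. A library without a peak at a gene is therefore a library without a call, not without binding. The pooled lists held 3625 peaks at P3 and 486 at P5. Peaks called on pooled libraries have no replicate, and intervals given here cover counting error only.

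At P3 29 solute carrier genes had a peak in the pooled list, and at P5 8 did. The P3 count is 7.77% of the 373 genes (95% Clopper-Pearson interval 5.27 to 10.98%), against 9.79% of all protein-coding genes. The P5 count is 2.14% (0.930 to 4.18%), against 1.64% of all protein-coding genes. In single libraries, P3 replicate 4 gave 81 genes (21.7%, against 20.3% of all protein-coding genes) and P3 replicate 5 gave 17 (4.56%, against 3.07%). P5 replicate 2 gave 2 genes (0.536%, against 0.74%) and P5 replicate 3 gave 28 (7.51%, against 4.31%). Over the 6 lists 29.5% of the solute carrier genes had a peak, against 26.9% of all protein-coding genes. The background share lay inside the interval of the solute carrier share in 5 of these 6 lists, and below it in P5 replicate 3, where the interval was 5.05 to 10.7%.

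Most of these genes rested on 1 library. Of the 104 genes with a peak in a single library, 84 had it in 1 library, 17 in 2, 2 in 3 and 1 in all 4. P3 replicate 4 alone supplied 62 of them. Without that library 42 genes remained, and the share of the 373 fell from 27.9% to 11.3%. Over all protein-coding genes it fell from 23.3% to 7.22%. How all genes split by number of libraries was not counted, so the split cannot be called particular to solute carriers.

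Solute carrier peaks were 1.34% of the peaks of P3 replicate 4, 2.01% of P3 replicate 5, 1.5% of P5 replicate 2 and 2.17% of P5 replicate 3. The values of the ages overlapped. The mean was 1.68% ± 0.475 (SD, n = 2) at P3 and 1.84% ± 0.474 (SD, n = 2) at P5 (two-sided exact permutation test, p = 0.667). With 2 against 2 libraries this test can give no p below 0.333, so it cannot show whether the ages differ. The number of solute carrier peaks was 128 and 19 at P3 and 3 and 29 at P5, which overlap as well (exact permutation test, p = 0.667). In the broad lists of the same libraries the solute carrier share was 1.19, 1.13, 1.17 and 1.27% in the same order. Bases whose nearest curated RefSeq start site belongs to a solute carrier made up 1.27% of the genome. The peak shares rest on the authors' gene assignment instead, which gave 179 library peaks, where curated RefSeq start sites gave 160.

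**Figure D1:**
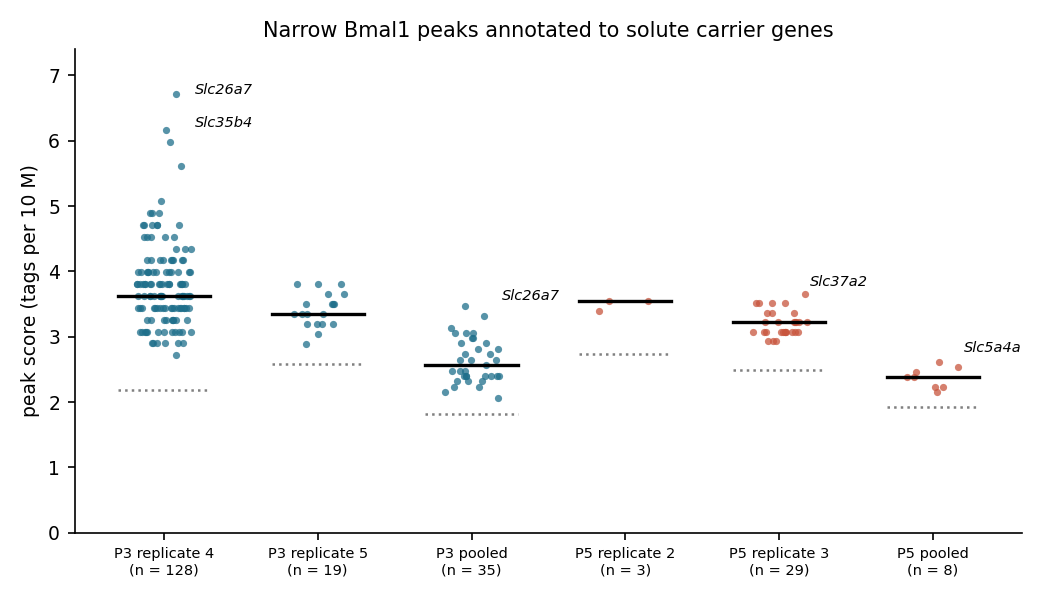
Peak score, in tags per 10 M, of every narrow peak annotated to a solute carrier gene, by list. Points are peaks, black bars are medians and dotted lines are the lowest score of any peak in the list. Scores above 3.80 occur only in P3 replicate 4, where Slc26a7 reaches 6.71, while the pooled lists run from 2.07 to 3.47 at P3 and from 2.15 to 2.61 at P5.

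Scores were low and closely packed outside P3 replicate 4. The score is the number of tags in a peak per 10 M tags. In the P3 pool the 35 peaks ran from 2.07 to 3.47, which are 25 to 42 tags, with a median of 2.56, the same as over all peaks of that list. In P3 replicate 4 the median was 3.63, also that of all its peaks. The 5 highest there were Slc26a7 at 6.71, the nucleotide sugar transporter Slc35b4 at 6.16, the cationic amino acid transporter Slc7a1 at 5.98, the monocarboxylate transporter Slc16a7 at 5.62 and the choline transporter-like gene Slc44a3 at 5.08. No other library scored a solute carrier peak above 3.80.

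None of the 179 peaks of the single libraries overlapped a solute carrier peak of another library by even 1 bp, whether of the same age or of the other. Over all narrow peaks of the 4 libraries the share that overlapped a peak of another library was 0.507% (61 of 12023), so such overlap was rare in general. The nearest pair belonged to Slc22a8, an organic anion transporter. Its peaks in P3 replicate 4 (3.63) and P3 replicate 5 (3.35) had centers 447 bp apart, 85.8 and 86.2 kb upstream, both in a LINE element of the Lx3C type. Of the 20 genes with peaks in 2 or more libraries, 15 had them at both ages and 5 at P3 alone. The same split over all genes was not counted. For these 20 genes the closest peaks of different libraries lay between 0.447 and 377 kb apart, with a median of 46.2 kb.

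The pools repeated their own libraries in part, and share their tags with them. Of the 35 pooled P3 peaks, 6 overlapped a peak of replicate 4 and 1, at Slc12a2, a peak of replicate 5. That is 17.1% and 2.86%, where over all pooled P3 peaks the shares were 24.6% and 3.14%. Of the 8 pooled P5 peaks, 3 overlapped a peak of replicate 3 (37.5%, against 21.2% of all pooled P5 peaks) and 0 a peak of replicate 2 (against 3.70%). No pooled solute carrier peak overlapped a pooled peak of the other age, where 0.221% of all pooled P3 peaks and 1.65% of all pooled P5 peaks did. The broad list of the same pool covered 7 of the 35 peaks at P3 (20%, against 22.8% of all) and 0 of the 8 at P5 (against 17.9%).

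**Figure D2:**
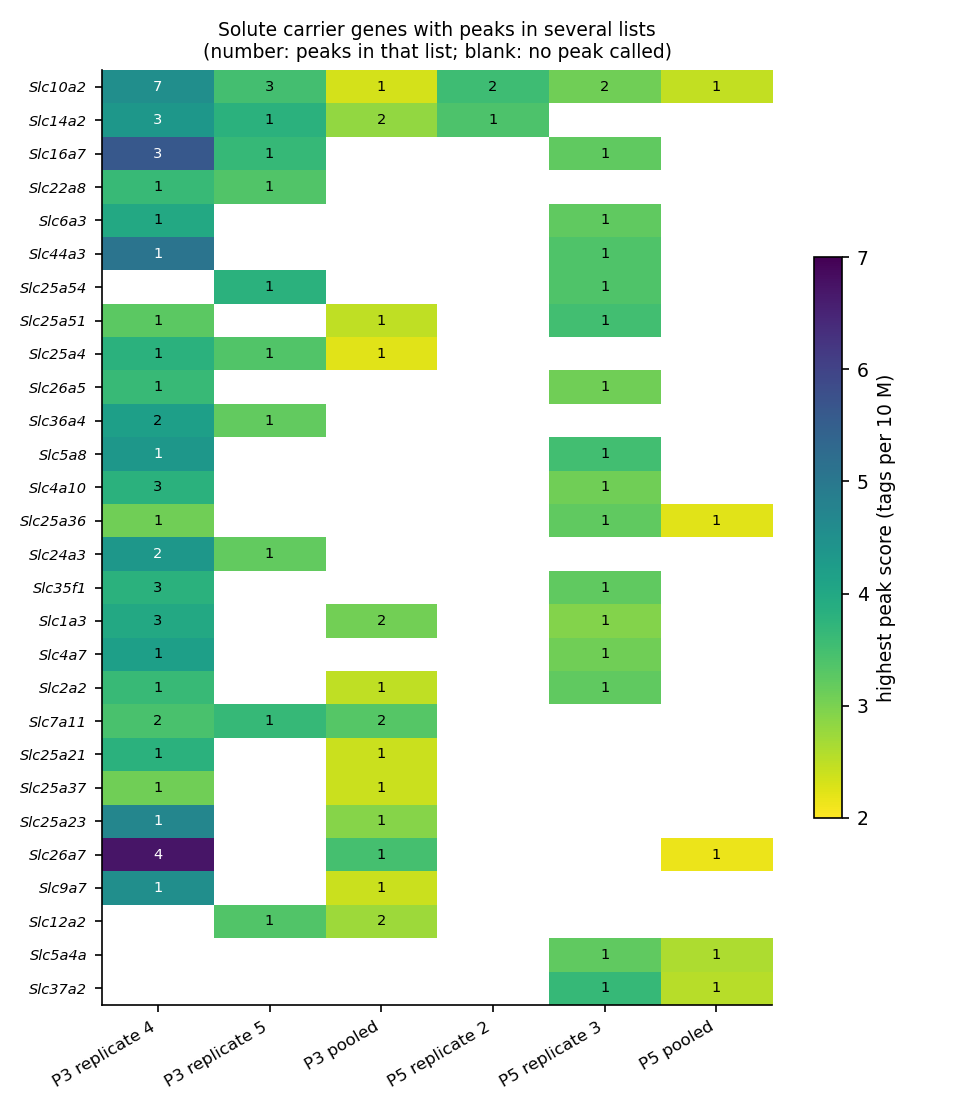
Solute carrier genes (rows) with peaks in 2 or more libraries or at the same place in a pool and a library, by list (columns). Color is the highest peak score in tags per 10 M, the number is how many peaks the list held, and blank means no call. Slc10a2 is the gene called in all 6 lists, and the P3 replicate 4 column is filled in most rows.

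Slc26a7, an anion exchanger for chloride and bicarbonate, carried the highest solute carrier score of both P3 replicate 4 and the P3 pool. In replicate 4 its intron 2 of 18 held a peak of 6.71 (37 tags), 22.4 kb downstream of the start site, and the pooled peak at that place scored 3.47 (42 tags). No peak was called at this gene in P3 replicate 5, P5 replicate 2 or P5 replicate 3. The window of the pool, with its center 36 bp away, held 5 more tags than that of replicate 4 by itself. A pooled P5 peak was also annotated to Slc26a7, at 2.15 (28 tags), but 130 kb downstream of the start. The pooled P3 sequence held 1 flexible E-box, CACTTG.

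The other places shared by the P3 pool and replicate 4 lay in introns or upstream. Slc25a23, a mitochondrial carrier of ATP-Mg and phosphate, had its peak 0.825 kb downstream of the start site, in intron 1 of 9. It scored 4.71 in replicate 4 and 2.90 in the pool, and was not called in the other libraries. It was the solute carrier peak nearest to a start site in any of the 6 lists apart from the replicate 4 call at the same place (0.816 kb). Slc1a3 encodes GLAST, the glutamate transporter of Müller glia. Its shared place lay 95.3 kb upstream in a B1 SINE element, with 3.81 in replicate 4 and 3.06 in the pool. Further replicate 4 peaks stood at 11.7 kb downstream (3.44, intron 2 of 9) and 32.5 kb upstream (3.99), a second pooled P3 peak at 87.5 kb upstream (2.56), and a P5 replicate 3 peak at 96.4 kb downstream (2.93). These are 5 separate places around 1 gene. Slc9a7, a sodium/proton exchanger of organelles, scored 4.53 and 2.40 in intron 1. Slc25a21, the mitochondrial oxodicarboxylate carrier, scored 3.81 and 2.40, and Slc25a37, the mitochondrial iron importer mitoferrin-1, scored 3.08 and 2.40. The P3 place shared with replicate 5 belonged to Slc12a2, the NKCC1 cotransporter that loads cells with chloride, 79.0 kb upstream, at 3.35 in replicate 5 and 2.73 in the pool.

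At P5 the shared places belonged to Slc5a4a, Slc37a2 and Slc25a36. Slc5a4a, a member of the sodium/glucose cotransporter family, had the highest pooled P5 score of the group, 2.61, in intron 9 of 14, and scored 3.22 in P5 replicate 3. Slc37a2, a glucose 6-phosphate and phosphate exchanger, scored 2.53 in the pool and 3.66 in replicate 3, in intron 5 of 18. Slc25a36, a mitochondrial pyrimidine nucleotide carrier, scored 2.23 and 3.22, 50.4 kb upstream. None was called in P5 replicate 2. The pooled P5 peaks called in neither library at that place were at Slc10a2 (2.46), Slc35f4 (2.38, intron 1 of 7), Slc6a5 (2.38, 36.7 kb upstream), Slc2a5 (2.23) and Slc26a7 (2.15). Slc6a5 is the glycine transporter GlyT2 and Slc2a5 the fructose transporter GLUT5, whose peak lay 2.47 kb downstream of the start in intron 3 of 13.

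Slc10a2, the sodium-dependent bile acid transporter known from ileum, was the gene with the most peaks and the 1 gene called in every library. P3 replicate 4 had 7 peaks between 3.26 and 4.53, P3 replicate 5 had 3 peaks of 3.50 each, P5 replicate 2 had 2 of 3.55 each, and P5 replicate 3 had 2 at 2.93 and 3.08. All 14 lay between 580 and 1633 kb upstream of the start site, each at a place of its own. The closest pair of different libraries was 6.64 kb apart. The pooled peaks lay 593 kb upstream at P3 (2.32) and 65.8 kb downstream at P5 (2.46). With curated RefSeq start sites, 8 of the 14 stayed nearest to Slc10a2, in a span of 1301 kb that is the widest of the 373 genes, and the others were nearest to the predicted gene Gm17215. These 8 are 6.15 peaks per Mb, where all peaks of the 4 libraries gave 4.54 per Mb of genome.

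Peaks in 3 libraries were found for Slc14a2, a urea transporter of kidney, and Slc16a7, the monocarboxylate transporter MCT2. Slc14a2 had 3 peaks in P3 replicate 4 (3.44 to 4.35), 1 in P3 replicate 5 (3.80) and 1 in P5 replicate 2 (3.39), and pooled P3 peaks at 2.61 kb downstream (2.81) and 107 kb upstream (2.32). Its closest peaks of different libraries were 44.5 kb apart, and 2 of its library peaks lay in introns of Setbp1. Slc16a7 had 3 peaks in P3 replicate 4 (3.26, 3.99 and 5.62), 1 in P3 replicate 5 (3.65) and 1 in P5 replicate 3 (3.22), 48.7 kb or more apart between libraries, and none in a pool. Slc8a1, the sodium/calcium exchanger NCX1, had 5 peaks (2.90 to 4.53), all in P3 replicate 4, from 43.1 kb downstream to 588 kb upstream.

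The number of peaks per gene went with the size of the span nearest to its start site. Genes with a peak in any list, counted by nearest curated RefSeq start site, had a median span of 121 kb (n = 106), and genes without had 37.3 kb (n = 267). Over all protein-coding genes the medians were 112 and 31.5 kb. Spearman's rho between span and peaks in the 4 libraries was 0.497 over the 373 genes, given as a description, since the genes share the same libraries. Within solute carrier spans there were 4.76 peaks per Mb over the 4 libraries, close to the 4.54 of the genome. By list the densities were 0.922 per Mb against 1.37 in the P3 pool, 0.238 against 0.184 in the P5 pool, 3.42 against 3.6 in P3 replicate 4, 0.476 against 0.357 in P3 replicate 5, 0.0297 against 0.0755 in P5 replicate 2 and 0.833 against 0.505 in P5 replicate 3. The density in solute carrier spans was thus below that of the genome in 3 lists and above it in 3.

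**Figure D3:**
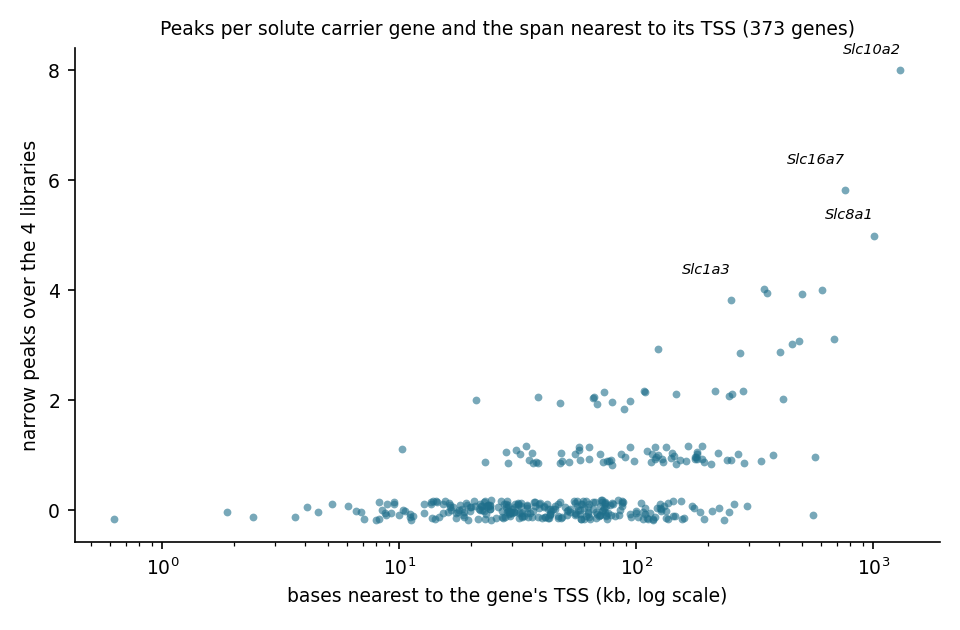
Number of narrow peaks over the 4 libraries for which a solute carrier gene has the nearest curated RefSeq start site (vertical, with small random offsets so that points do not hide each other) against the bases nearest to that start site in kb (horizontal, log scale). Each point is 1 of 373 genes. Slc10a2 has both the widest span (1301 kb) and the most peaks (8).

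No solute carrier peak in any of the 6 lists was annotated to a promoter, and promoters held only 0.53 to 1.44% of all peaks of these lists. In the P3 pool 18 of 35 peaks were intergenic (51.4%, 95% Clopper-Pearson interval 34.0 to 68.6%, against 67.8% of all peaks). Another 16 were in introns (45.7%, 28.8 to 63.4%, against 29.3%). The last was at a transcription termination site, that of the betaine and GABA transporter Slc6a12 (2.40). Of the 17 peaks within genes, 16 lay in the solute carrier gene itself and 1, annotated to the glucose transporter Slc2a2, in intron 4 of 31 of Tnik. This split was not counted over all peaks. The median distance to the start site was 33.7 kb, against 75.3 kb for all peaks, and 7 peaks (20%, 8.44 to 36.9%) were within 10 kb, against 13.6%. Upstream and downstream were alike, with 17 and 18 peaks. Repeats held 11 of the 35 (31.4%, 16.9 to 49.3%), against 36.2%. None of the 35 sequences occurred more than once in the genome by its median 31-base word (0 of 35, which allows a share of up to 8.57%, or 3 counts), where 2.54% of all P3 peaks did. The intergenic and intron backgrounds lay inside their intervals, as did those for peaks within 10 kb and for repeats. The background for copies lay below the share that 0 of 35 allows.

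**Figure D4:**
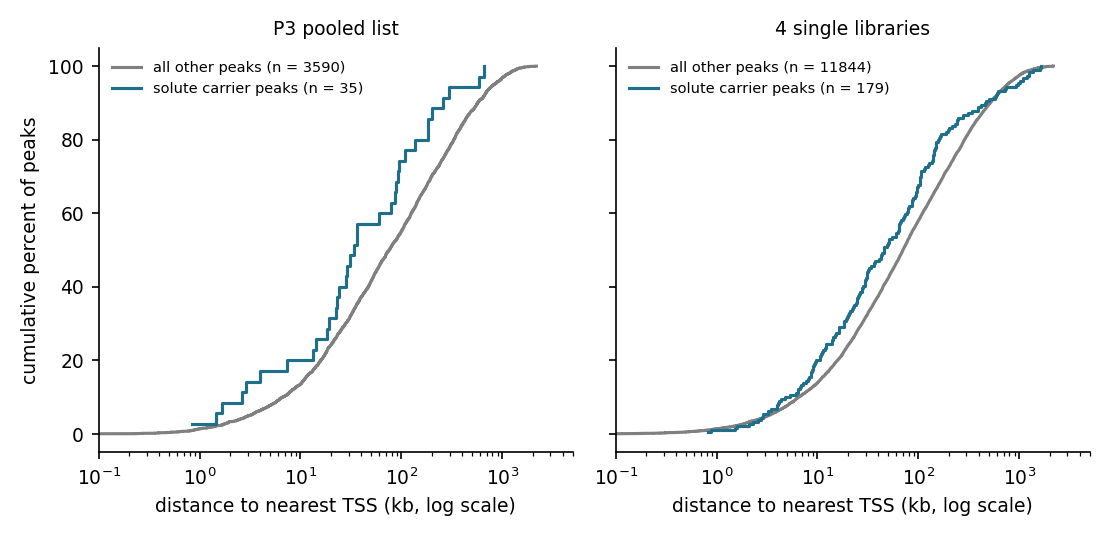
Cumulative percent of peaks by distance to the nearest start site (kb, log scale) for solute carrier peaks (blue) and all other peaks (grey), in the P3 pool on the left and over the 4 single libraries on the right. The blue line runs to the left of the grey for most of its length, with medians of 33.7 kb for solute carrier peaks and 75.3 kb for all peaks in the P3 pool.

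The same order of distances did not hold in every library. The median distance of solute carrier peaks was 45.9 kb in P3 replicate 4 (all peaks 70.4 kb) and 28.5 kb in P5 replicate 3 (all peaks 67.7 kb), but 79.0 kb in P3 replicate 5 (all peaks 70.4 kb) and 580 kb in P5 replicate 2, where 2 of its 3 peaks belonged to Slc10a2. In P5 replicate 3, 16 of 29 solute carrier peaks lay in repeats (55.2%, 35.7 to 73.6%), against 35.9% of all its peaks. In P3 replicate 4 the share was 29.7%, against 32.2%.

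Peaks within 5 kb of a start site were few, 18 in the single libraries at 17 genes, which is 10.1% of solute carrier library peaks against 7.76% of all. In P5 replicate 3 they included prestin (Slc26a5, 0.869 kb downstream, 3.08), the dopamine transporter Slc6a3 (2.27 kb upstream, 3.22) and the sodium bicarbonate cotransporter Slc4a7 (3.43 kb downstream, 3.08). In P3 replicate 5 the nearest was Slc25a54, a mitochondrial carrier, at 1.59 kb upstream (3.80). In P3 replicate 4 they included Slc7a6os (1.51 kb downstream, 3.08), the creatine transporter Slc16a12 (2.10 kb downstream, 2.90), the sodium/proton exchanger Slc9a3 (2.57 kb upstream, 3.08), the folate transporter Slc46a1 (2.76 kb downstream, 4.17), the serotonin transporter Slc6a4 (4.02 kb downstream, 4.53) and the retinal glutamate transporter Slc1a7 (4.12 kb upstream, 3.81). The replicate 4 peak 4.81 kb upstream of the vesicular monoamine transporter Slc18a1 (3.81) lay in intron 1 of 13 of Atp6v1b2. In the P3 pool the nearest after Slc25a23 were the inositol transporter Slc5a11 (1.45 kb downstream, 2.65), the choline transporter-like gene Slc44a1 (1.67 kb upstream, 2.32), Slc14a2 and the mitochondrial NAD carrier Slc25a51 (2.85 kb downstream, 2.48). Each of these calls stood in 1 list at its place, except that of Slc25a23. The paper names Slc44a1 among its P3 genes with a Bmal1 E-box. Neither its pooled P3 peak nor its P3 replicate 4 peak (3.99, 20.5 kb downstream) held the flexible E-box. Broad peaks were not searched for the motif. The paper drew its list from its own P3 candidate sites, with other motif tools and a promoter database. Its search is thus unlike the one here, which covered narrow peaks only.

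Exons and gene ends were hit in single libraries only, apart from Slc6a12. An exonic peak lay in exon 3 of 12 of the organic anion transporter Slc17a3 (P5 replicate 3, 3.52), and a peak in the 3′ UTR of the amino acid transporter Slc6a14 was called in P3 replicate 5 (3.20). Further P3 replicate 4 peaks were annotated by distance to Slc10a6, Slc35d3 and Slc36a2 (3.44, 3.08 and 2.90) but lay in an exon of Ptpn13, the 3′ UTR of Pex7 and the end of Slc36a1os. Over the 4 libraries, 18 solute carrier peaks lay within another gene (11 in P3 replicate 4, 3 in P3 replicate 5, 4 in P5 replicate 3). The same count over all library peaks was not made, so this cannot be called particular to solute carriers.

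The flexible E-box was present in 15 of the 35 pooled P3 peaks (42.9%, 95% Clopper-Pearson interval 26.3 to 60.6%), against 33.1% of all P3 peaks. At P5 it was in 3 of 8 (37.5%, 8.52 to 75.5%), against 31.7%. Both backgrounds lay inside the intervals. In single libraries the solute carrier shares were 33.6% in P3 replicate 4 (29.2% of all its peaks), 47.4% in P3 replicate 5 (34.9%), 66.7% of 3 peaks in P5 replicate 2 (38.5%) and 34.5% in P5 replicate 3 (36.6%). The flexible E-box was in 5 of the 10 places shared by a pool and a library. Among the 7 of them printed above, 4 held it, those of Slc26a7 (CACTTG) and of Slc25a21, Slc25a23 and Slc25a36 (CAAATG in each). The exact CACGTG was in 0 of 35 pooled P3 peaks (which allows a share of up to 8.57%, where 1.27% of all P3 peaks held it) and 0 of 8 at P5 (up to 37.5%). With 300 bp added on either side, a search chosen after seeing the data, 1 of the 35 had it (2.86%, against 5.71% of all P3 peaks), and 0 of the 8 (against 6.17%). A match describes the letters and is not a binding site.

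By role, the following counts are of genes with a peak in any of the 6 lists, where the background is 26.9% of protein-coding genes. The lists are of known transport roles, and the highest share belonged to neurotransmitter transporters, with 13 of 21 genes (61.9%). They had 8.98 peaks per Mb of their spans over the 4 libraries, against 4.54 in the genome. Of the 12 with a peak in a single library, 8 had it in P3 replicate 4 alone, and without that library 4 of 21 remained (19%, against 7.22% of protein-coding genes). They included the glutamate transporters Slc1a1, Slc1a2, Slc1a3 and Slc1a7, the GABA transporter Slc6a11, the dopamine, serotonin and glycine transporters Slc6a3, Slc6a4 and Slc6a5, the choline transporter Slc5a7, the vesicular glutamate transporter Slc17a6 and the vesicular monoamine transporters Slc18a1 and Slc18a2. Slc17a6, which encodes VGLUT2 of ganglion cells, had a pooled P3 peak of 2.98 in intron 3 of 11, 7.26 kb downstream of the start. Its P3 replicate 5 peak (3.04) lay elsewhere, 41.1 kb upstream in an intron of Ano5. Slc1a2 (GLT-1), the glutamate transporter of astrocytes and cones, had 2 intronic peaks in P3 replicate 4 (3.99 and 4.71). The inhibitory vesicular transporter Slc32a1 and the vesicular glutamate transporter Slc17a7 had none in any list. Their spans were 7.1 and 8.7 kb, where solute carrier genes without a peak had a median of 37.3 kb. Whether span bears on the lack of a peak was not tested.

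Metal ion transporters stood at the other end, with 4 of 32 genes (12.5%) and 1.54 peaks per Mb. The zinc transporter Slc39a10 had 3 pooled P3 peaks (2.65, 2.07 and 2.48, 3.99 to 299 kb upstream) and 1 in P3 replicate 4 (3.63), all at different places. Slc39a12, also a zinc transporter, had a pooled P3 peak 35.9 kb upstream (2.40). The zinc transporter Slc30a8 (3.44, P3 replicate 4) and the magnesium transporter Slc41a2 (3.08, P5 replicate 3) had 1 each. Without P3 replicate 4 a single gene of the 32 had a library peak.

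The list of sugar and monocarboxylate transport counted 14 of 35 genes (40%), of which 9 kept a library peak without P3 replicate 4 (25.7%). The list also holds carriers of other substrates, such as the inositol transporter Slc5a11 and the creatine transporter Slc16a12. Its pooled P3 peaks were at Slc5a11, Slc2a2 (2.48) and the urate transporter Slc2a9 (2.40, intron 2 of 11), and the pooled P5 peaks at Slc5a4a and Slc2a5. Mitochondrial carriers, the longest list, counted 15 of 47 (31.9%), with 6 pooled P3 genes (12.8%, against 9.79% of all protein-coding genes). Besides those named, Slc25a12, the aspartate/glutamate carrier of neurons, had a pooled P3 peak of 3.06 in intron 3 of 17 within a CA repeat. Its P3 replicate 4 peaks of 4.89 and 4.71 lay at other places.

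Exchangers of chloride, bicarbonate and protons counted 11 of 39 (28.2%), with pooled P3 peaks at Slc26a7, Slc12a2, Slc9a7 and the anion exchanger Slc4a3 (3.06, 31.1 kb downstream). Sodium-calcium exchangers counted 3 of 8 (37.5%), the NCX1 gene with a pooled P3 peak of 2.23 and 2 potassium-dependent exchangers, Slc24a1 of rods and Slc24a3, with library peaks. Amino acid transporters counted 11 of 36 (30.6%). Among them Slc7a11, the cystine/glutamate exchanger xCT, had pooled P3 peaks of 3.31 and 3.14, next in score after Slc26a7, and library peaks at other places in P3 replicate 4 (3.26 and 3.44) and P3 replicate 5 (3.65). Slc38a6 had a pooled P3 peak of 2.15 in intron 4 of 15.

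Nucleotide sugar transporters and their relatives counted 11 of 27 genes (40.7%), and 9 of the 11 had no peak in any other single library than P3 replicate 4. Slc35b3, which carries the sulfate donor PAPS into the Golgi, had a pooled P3 peak of 2.98, 654 kb upstream. Organic ion transporters counted 8 of 25 (32.0%), with pooled P3 peaks at Slc22a22 (2.40) and Slc22a23 (2.65, intron 3 of 10). Outside these lists, the highest pooled P3 scores were those of the thiamine transporter Slc19a3 (2.90, 14.2 kb upstream), then of the sulfate transporter Slc13a1 (2.81, intron 2 of 14) and of Slc14a2 (2.81).

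**Figure D5:**
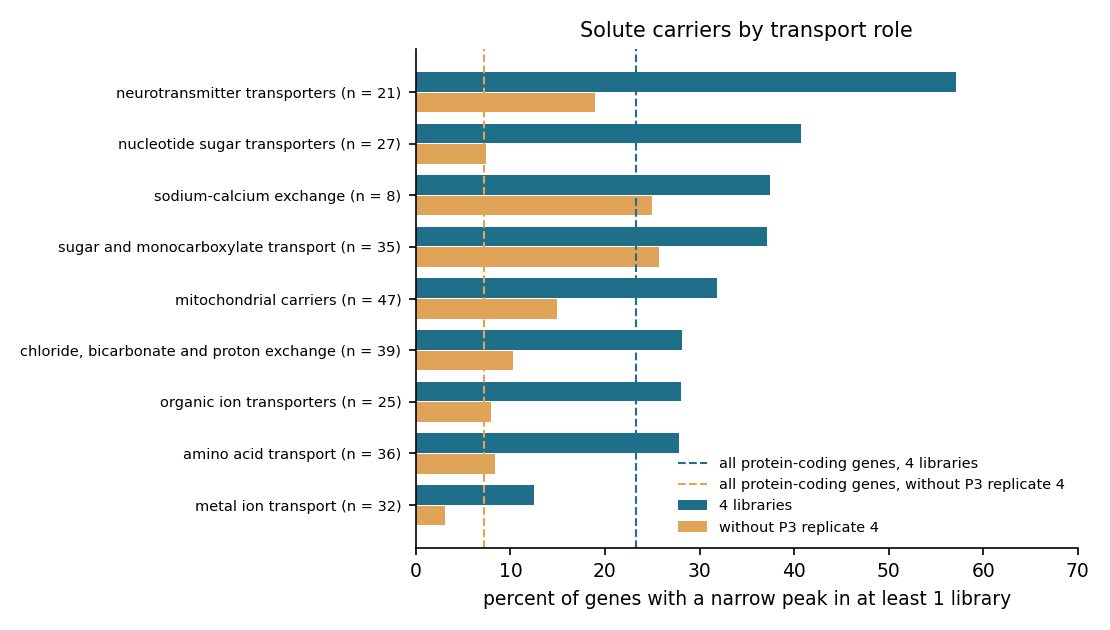
Percent of the genes of each role list with a narrow peak in at least 1 library, over the 4 libraries (blue) and without P3 replicate 4 (orange). Dashed lines give the same percent for all protein-coding genes, 23.3% and 7.22%. Neurotransmitter transporters are highest over the 4 libraries (57.1%), and metal ion transporters are lowest in both (12.5% and 3.12%). The sugar and monocarboxylate list, which also holds carriers of other substrates, is highest without P3 replicate 4 (25.7%).

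By family number, 32 of the 51 families in RefSeq had at least 1 gene with a peak. The 19 without were small, with 42 genes in all and at most 6 in any of them. Among families of at least 5 genes, family 1 (glutamate and neutral amino acid transporters) had 5 of 7 genes with a peak. Family 5 had 8 of 13, family 44 (choline transporter-like) 3 of 5, and family 4 (bicarbonate transporters) 5 of 11. Of all protein-coding genes 26.9% had one. Family 5 is named after sodium/glucose cotransport but also holds other carriers, such as the choline transporter Slc5a7 and the inositol transporter Slc5a11, both with a peak. Its members Slc5a1 and Slc5a2 had none. Without P3 replicate 4 the library counts of families 1, 5, 44 and 4 were 1, 6, 1 and 2, where 7.22% of all protein-coding genes had a library peak. Family 27 (fatty acid transport proteins) had 0 of 6, family 30 (zinc efflux) 1 of 10, family 9 (sodium/proton exchangers) 2 of 14, and family 39 (zinc uptake) 2 of 14, and none of these had a library peak without P3 replicate 4. In family 1 all 5 genes had a peak in P3 replicate 4, and Slc1a3 was the 1 with a peak in another library.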

How the data were processed

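Bmal1 ChIP-seq of retina at P3 and P5 was analysed. Per the study's methods and the labels, the authors used Trim Galore, bowtie2 with mm10, and MACS2, and the file headers name HOMER annotatePeaks. Their versions and calling limits were not stated, and hg38 also stands among the builds. The deposited peak score is a signal, the tags of a peak per 10 M tags of the library. The deposited focus ratio, a fraction of the tags of a peak, was not interpreted. The list of all Bmal1 libraries pooled, gene name lists and pathway tables were not used.

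Tag numbers came from the score steps (tolerance 0.0052). Gene assignment, annotation and distance are the authors', and spans use curated RefSeq start sites of GRCm38.p6. Intervals are Clopper-Pearson. Where a count was 0, the share said to be allowed is instead 3 counts out of the peaks examined. Library shares were compared by a two-sided exact permutation test with a threshold of 0.05. The code was tested on simulated data. The members and role lists were chosen with earlier results of these data known. Named genes have a pooled peak at both ages, any pooled P5 peak, the same place in 2 lists, peaks in 3 or more libraries, the 10 highest pooled P3 scores, a peak in an exon, UTR or gene end or within 5 kb of the start, or the most peaks, with up to 4 genes of each role list and Slc44a1. A few items that the rule selects were left unreported. Other names were chosen after their values were seen. Alternatives were broad lists, the upper 50% of scores, other start sites, a 100 kb limit, 1 genome copy, other overlaps, other motif windows and each library left out. The 300 bp search, the counts over any library with each left out and the role lists and families without P3 replicate 4 were added after seeing the data. Python 3.11.15, numpy 2.4.6, scipy 1.17.1, pandas 2.3.3, numba 0.67.0 and matplotlib 3.10.9 were used.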

Additional observations from a re-analysis of the deposited data

How the results depend on the processing

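The count of solute carrier genes depended on the list more than on any filter. The P3 count of 29 became 78 in the broad list, 15 in the upper 50% of scores, and 17 to 81 with 1 library standing for the age. The P5 count of 8 became 36 in the broad list and 2 to 28 with 1 library. Genes at both ages went from 2 to 20 in broad lists and 0 in the upper 50% of scores, and ranged from 1 to 5 with a library left out. The matching counts over all genes were not made. The 100 kb limit, 1 genome copy and curated RefSeq start sites moved the P3 and P5 counts by less than 1.5 times. The 104 genes of any library became 42 without P3 replicate 4, and ranged from 42 to 104 over the libraries left out, an alternative chosen after seeing the data. Places shared by libraries went from 0 to 1 with centers within 1 kb and remained 0 with 50% overlap. With the exact CACGTG the E-box share fell to 0.0% at both ages, or to 2.86% at P3 and 0.0% at P5 with 300 bp on either side, a search added after seeing the data. In a 200 bp window, wider than the pooled peaks, it was 54.3% at P3 and 50% at P5. No share of all peaks in that window stands beside these values, so no excess can be read from them. In single libraries the E-box share ran from 33.6 to 47.4% at P3 and from 34.5 to 66.7% at P5. The P3 minus P5 difference in solute carrier share, -0.158 percentage points, turned to 0.155 in the upper 50% of scores (exact permutation p = 1) and ranged from -0.494 to 0.177 with a library left out, and was -0.0598 in broad lists. The cause was not tested. No paired analysis was possible because the replicate numbers of the ages do not overlap. With 200 peaks in P5 replicate 2 and 2 libraries per age, neither absence of a peak nor equality of the ages can be read from these data.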
